A study of Homo sapiens with 10 samples.

Results

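The JAK kinases and STAT factors described here are 9 genes taken by their symbols from a table of 62709 entries with read counts: the kinases JAK1, JAK2 and TYK2 and the transcription factors STAT2, STAT3, STAT4, STAT5A, STAT5B and STAT6. The cells were H441, a human line established from lung adenocarcinoma, labelled as epithelial and grown with fetal bovine serum, and RNA-seq had been run on 10 libraries. The groups were 3 libraries of wild-type cells without treatment (WT), 3 of cells whose TET1 gene was knocked out from the wild type with CRISPR-Cas9 (KO), 2 of cells in which human TET1, in full length, was transiently overexpressed from a transfected plasmid (OE), and 2 titled Lipo that carry the same wild-type, no-treatment label as WT. What the Lipo title stands for, whether the knockout is 1 clone, and what drives TET1 on the plasmid are not given in the sources used here. No group is labelled as given a plasmid without TET1. In every comparison with OE, effects of TET1 and of the transfected plasmid therefore cannot be told apart. TET1 is a dioxygenase that oxidises 5-methylcytosine in DNA, and the series asks what its loss or gain does to transcription in these cells.

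Cytokines and interferons bind receptors that have no kinase of their own and carry a JAK on their cytoplasmic tail. The activated JAKs phosphorylate the receptor and then a STAT, which dimerises, enters the nucleus and binds promoters. In lung epithelium the interferon branch, in which JAK1 and TYK2 phosphorylate STAT2 and its partner and IRF9 completes the complex, drives antiviral genes, while STAT3 serves interleukin-6 family cytokines and STAT6 serves interleukin-4 and interleukin-13.

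The binding core of the STAT2 and IRF9 complex, GAAA and GAAA separated by any 2 bases (the interferon-stimulated response element core), was searched on both strands of the RefSeq promoter windows (GRCh38.p14), each 250 bases before to 50 after a start site. All 9 members had at least 1 window, 17 in all, and none held this core, which stood in 3.57% of 35116 windows of all genes. Among the 22 interferon target genes listed for comparison 17 had a window and 15 of these held it. The STAT dimer core TTCNNNGAA was in no member window against 7.66% of all windows. TTC and GAA separated by 4 bases, the spacing used by STAT6, were in 1 STAT5A window against 6.44% of all windows. The 250 bases upstream of 4 start sites are printed 5′ to 3′ on the gene's strand, because STAT2 and STAT5A were called higher in the TET1-transfected cells, as were the interferon targets, and IFI44L and IFIT1 stand for those targets. Capitals mark the interferon core or its reverse complement, and in STAT5A the 4-base spacing of the dimer core.
STAT2, chr12:56360108-56360357, minus strand: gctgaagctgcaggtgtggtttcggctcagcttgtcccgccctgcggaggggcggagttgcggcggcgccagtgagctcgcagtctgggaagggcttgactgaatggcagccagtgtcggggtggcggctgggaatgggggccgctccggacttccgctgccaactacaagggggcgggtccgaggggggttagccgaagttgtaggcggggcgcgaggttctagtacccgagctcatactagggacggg
STAT5A, first of 3 windows, chr17:42287189-42287438, plus strand: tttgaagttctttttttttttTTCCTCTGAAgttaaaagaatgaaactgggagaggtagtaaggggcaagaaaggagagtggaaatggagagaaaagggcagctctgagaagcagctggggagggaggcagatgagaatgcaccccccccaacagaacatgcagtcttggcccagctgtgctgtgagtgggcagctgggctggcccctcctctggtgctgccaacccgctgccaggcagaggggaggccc
IFI44L, chr1:78620198-78620447, plus strand: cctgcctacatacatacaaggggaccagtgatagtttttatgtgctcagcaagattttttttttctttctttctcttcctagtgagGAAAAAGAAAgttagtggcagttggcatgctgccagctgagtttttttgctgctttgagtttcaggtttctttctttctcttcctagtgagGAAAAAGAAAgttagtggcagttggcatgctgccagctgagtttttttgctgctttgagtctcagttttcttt
IFIT1, chr10:89392373-89392622, plus strand: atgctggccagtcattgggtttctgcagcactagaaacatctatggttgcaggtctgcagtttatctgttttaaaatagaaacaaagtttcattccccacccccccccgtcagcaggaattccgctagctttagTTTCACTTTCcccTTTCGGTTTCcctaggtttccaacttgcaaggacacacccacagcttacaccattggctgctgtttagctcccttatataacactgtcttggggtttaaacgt
The absence of a match says only that these letters are not in these windows.

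Library totals ran from 20994462 to 25981097 counts. TET1 itself had 2, 7 and 0 reads in the WT libraries, 4, 0 and 8 in KO, 0 and 1 in Lipo, and 882 and 957 CPM in OE (CPM, reads of a gene scaled to a common library size). The transcript therefore checks the OE label, while the KO label could not be checked from so few reads. Of 12 lung epithelial markers 10 were above 1 CPM in each group, and SCGB1A1, a club cell gene, was listed at 0 in every library. Among the haematopoietic markers, CD2, MS4A1 and NKG7 were at 0 in every library. PTPRC, the pan-leukocyte CD45 gene, was at 0 in Lipo and OE, and the summed level of the list was 2.45 to 3.29 CPM in WT, 2.56 to 2.90 in KO, 5.01 to 5.25 in Lipo and 9.61 to 12.9 in OE. Of 8 fibroblast markers 2 were above 1 CPM in each group and DCN, PDGFRA, PDGFRB and THY1 were at 0 in every library, with a summed level of 177 to 289 CPM in WT, 70.9 to 77.7 in KO, 169.6 to 183 in Lipo and 343 to 351 in OE. The 6 endothelial markers, with CLDN5 at 0, summed to 115 to 119 CPM in WT, 91.9 to 109 in KO, 83.3 to 87.1 in Lipo and 90.2 to 102 in OE. The part of these markers in any result was not tested. Mitochondrial transcripts took 5.71% ± 0.387 of the WT total and 6.17% ± 0.954 of KO (SD, n = 3 each), 8.38% ± 0.480 of Lipo and 4.81% ± 0.107 of OE (SD, n = 2 each), and the part of this difference in any result was not tested. The labels do not say that replicates are separate cultures, so p-values measure the spread between these libraries, which may be technical. In such bulk RNA, fewer cells that express a gene and less RNA per cell cannot be told apart.

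Levels are CPM after TMM scaling, and between genes they are compared only per kb of exon. In WT cells STAT6 was the highest member at 36.8 ± 5.18 CPM per kb (SD, n = 3). JAK1 at 23.3 ± 0.597 and STAT3 at 22.8 ± 0.985 CPM per kb came next, and their libraries overlapped. TYK2 at 9.39 ± 1.21 and STAT2 at 8.22 ± 1.55 CPM per kb also overlapped. STAT4 at 1.27 ± 0.166 and JAK2 at 1.16 ± 0.0964 CPM per kb were a further overlapping pair, below the median of 3.71 CPM per kb over the 15352 tested genes with a length. The paralogs STAT5B at 0.179 ± 0.0426 and STAT5A at 0.0265 ± 0.0112 CPM per kb were the lowest and did not overlap. STAT5A and STAT5B are near-identical copies and how reads matching both were counted is not given in the sources used here, so both levels are uncertain. In OE the highest members lay closer together. STAT6 at 33.9 ± 0.125, JAK1 at 32.0 ± 1.92, STAT3 at 31.1 ± 0.0328 and STAT2 at 21.9 ± 0.763 CPM per kb (SD, n = 2) stood there above TYK2 at 8.05 ± 0.250.

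**Figure D1:**
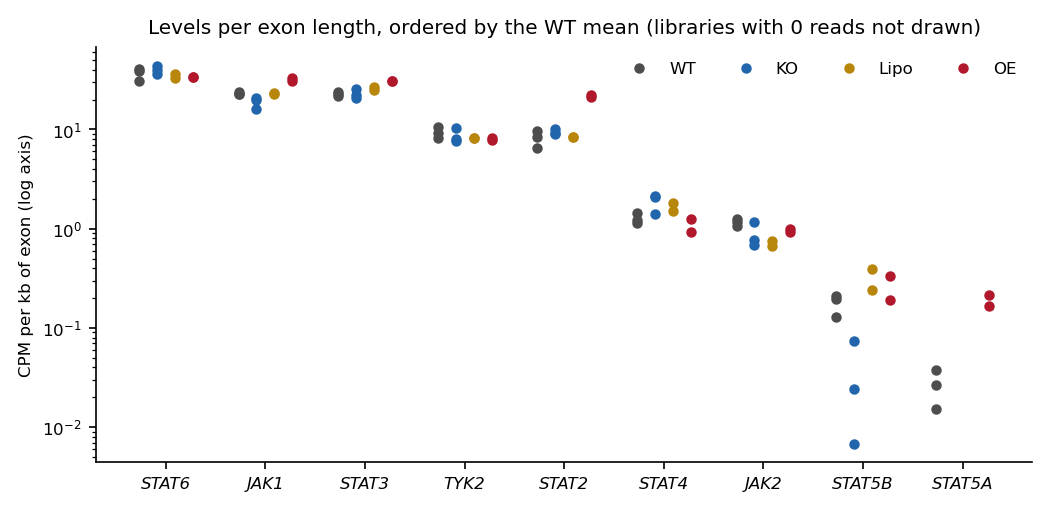
Level of each JAK and STAT transcript in CPM per kb of exon on a log axis, with 1 point per library, coloured by group and ordered by the WT mean. STAT6, JAK1 and STAT3 form the top in all groups, STAT2 stands at 21.4 and 22.4 in OE against 6.58 to 9.65 in WT, and STAT5A has no point in KO or Lipo because those libraries had 0 reads.

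Among the kinases, JAK1 was higher in TET1-transfected cells and neither TYK2 nor JAK2 passed a test. JAK1 serves the interferon receptors and many other cytokine receptors. It had 152, 145 and 145 CPM in WT replicates 1, 2 and 3, 126, 129.7 and 102 in KO replicates 1, 2 and 3, 144 and 149 in Lipo replicates 2 and 3, and 194 and 211 in OE replicates 1 and 2. Both OE libraries were above all 8 others, and all 3 KO libraries were below all others. JAK1 was 1.38-fold higher in OE than in Lipo (95% interval 1.12 to 1.71, log2 difference 0.47 ± 0.14 SE, edgeR quasi-likelihood adjusted p = 0.0438). This call was lost without any 1 of WT 2, WT 3, Lipo 2, Lipo 3, OE 1 or OE 2 (adjusted p = 0.0645 to 0.282), with library size scaling alone (adjusted p = 0.0611) and with no filter on low counts (adjusted p = 0.0864). A block for replicate number lost the call as well (adjusted p = 0.0648). Between KO and WT the JAK1 log2 difference was -0.30 ± 0.12 (SE) and did not pass (adjusted p = 0.106).

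TYK2, the partner of JAK1 at the type I and III interferon receptors, had 56.1, 62.3 and 72.3 CPM in WT, 51.7, 53.8 and 69.6 in KO, 56.2 and 55.5 in Lipo, and 53.3 and 55.7 in OE. KO overlapped every other group, and both OE libraries lay just below the lowest WT library. The 95% interval of the OE to Lipo ratio was 0.756 to 1.26 and that of KO to WT was 0.746 to 1.13. JAK2, which serves the receptors for interferon gamma, growth hormone and erythropoietin, had 7.71, 6.53 and 7.27 CPM in WT, 7.15, 4.22 and 4.72 in KO, 4.66 and 4.15 in Lipo, and 6.16 and 5.75 in OE. WT was above Lipo and OE in every library, and KO replicate 1 lay within the WT range. The JAK2 log2 difference was 0.43 ± 0.28 (SE) between OE and Lipo (adjusted p = 0.352), -0.42 ± 0.22 between KO and WT (adjusted p = 0.250) and -0.70 ± 0.26 between Lipo and WT (adjusted p = 0.151).

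STAT2 rose in TET1-transfected cells and was the member whose call in OE held under every alternative run. STAT2 is the subunit that gives the interferon-activated complex its transactivation domain. Its gene lies on chromosome 12 (chr12:56341597-56360155, minus strand, GRCh38, GENCODE release 29). It had 40.2, 51.5 and 59.0 CPM in WT, 56.2, 62.5 and 54.9 in KO, 50.8 and 51.1 in Lipo, and 137 and 131 in OE. Both OE libraries were above every other library, WT overlapped KO and Lipo, and KO lay above Lipo. STAT2 was 2.63-fold higher in OE than in Lipo (95% interval 2.04 to 3.39, log2 difference 1.39 ± 0.17 SE, adjusted p = 6.56e-05), a larger difference than in 94.7% of tested genes. It passed under every alternative run, with log2 differences of 1.36 to 1.42 when single libraries were left out. Between KO and WT the log2 difference was 0.20 ± 0.14 (SE, adjusted p = 0.383), with an interval for the ratio of 0.939 to 1.41. The 3 genes whose profile over the 10 libraries was most like that of STAT2, by root mean square difference in centred log2 CPM, were TMEM106A (0.122), BTN3A2 (0.132) and TAPBPL (0.154).

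STAT2 rose by less than each of the interferon targets. All 21 tested targets had a larger OE to Lipo log2 difference than STAT2, from 2.48 to 10.53. The gene next to STAT2, 1.19 kb away and convergent with it, is IL23A, the p19 subunit of interleukin-23, which went from 20.6 ± 0.209 CPM in Lipo to 148 ± 4.45 in OE (SD, n = 2 each). STAT6 lies 735 kb from STAT2 on the same chromosome and is described below with no such difference.

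STAT3 and STAT6, the most abundant STATs, did not pass in any comparison of groups. STAT3, the main STAT of interleukin-6 family signals, had 193, 199 and 210.4 CPM in WT, 182, 227 and 195 in KO, 220.4 and 234 in Lipo, and 274 and 274 in OE. The OE libraries were the highest of all and did not overlap Lipo, but the log2 difference was 0.27 ± 0.14 (SE, adjusted p = 0.230, interval of the ratio 0.985 to 1.48). It passed when only the OE and Lipo libraries were fitted and when WT was used as the control. STAT6, the STAT of interleukin-4 and interleukin-13, had 225, 286 and 294 CPM in WT, 261, 292 and 319 in KO, 264 and 242 in Lipo, and 247 and 248 in OE. OE lay inside the Lipo and WT ranges and below all KO libraries. The intervals of the STAT6 ratio were 0.901 to 1.30 for KO to WT and 0.781 to 1.23 for OE to Lipo.

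The ratios of STAT2 to STAT3, STAT6 to STAT2 and JAK1 to TYK2 within a library stood apart in OE. The ratio of STAT2 to STAT3, both per kb of exon, was 0.359 ± 0.0537 in WT and 0.416 ± 0.0255 in KO (SD, n = 3 each), and 0.324 ± 0.0124 in Lipo and 0.705 ± 0.0253 in OE (SD, n = 2 each). The ratio of STAT6 to STAT2 was 4.51 ± 0.290 in WT and 1.55 ± 0.0597 in OE. For JAK1 to TYK2 it was 2.51 ± 0.375 in WT, 2.26 ± 0.592 in KO, 2.81 ± 0.0850 in Lipo and 3.98 ± 0.115 in OE. In each of these 3 ratios the OE libraries did not overlap any other library, and no test was run on them. Each holds STAT2 or JAK1, which were called higher in OE, so the separation is not further support for those calls. STAT6 to STAT3 and STAT4 to STAT3 were also computed, and there OE lay below all other libraries. JAK2 to JAK1 did not stand apart, at 0.0326 and 0.0279 in OE against 0.0331 and 0.0286 in Lipo.

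**Figure D2:**
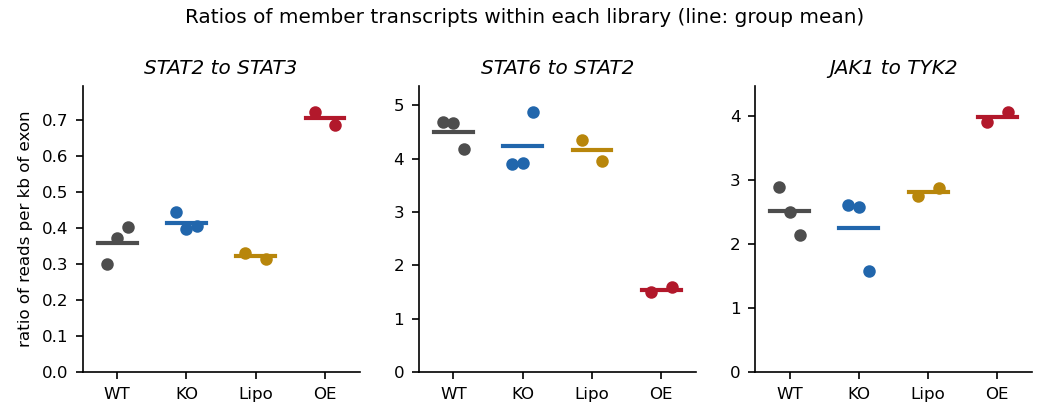
Ratios of per-kb levels between pairs of members within each library, as points, with a line at the group mean (WT and KO n = 3, Lipo and OE n = 2). The OE libraries stand apart in all 3 panels, at 0.687 and 0.723 for STAT2 to STAT3, 1.51 and 1.59 for STAT6 to STAT2, and 3.90 and 4.06 for JAK1 to TYK2.

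STAT4, a STAT of interleukin-12 and interleukin-23 signals known mainly from lymphocytes, had estimates of opposite sign in KO and OE, neither of which passed. It had 6.97, 5.84 and 5.43 CPM in WT, 10.1, 6.72 and 9.96 in KO, 7.24 and 8.71 in Lipo, and 4.39 and 5.93 in OE. KO replicate 2 lay within the WT range, and OE lay below both Lipo libraries. The log2 difference was 0.55 ± 0.22 (SE, adjusted p = 0.114) between KO and WT and -0.63 ± 0.27 (adjusted p = 0.156) between OE and Lipo. The KO difference passed without KO 2 (adjusted p = 0.0471), and the OE difference when only OE and Lipo were fitted (adjusted p = 0.0415). STAT4 shares 2.28% of its exon bases with a gene on the other strand, and the strand setting of the counting is not given in the sources used here.

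STAT5A and STAT5B, which lie 10.8 kb apart on chromosome 17 with STAT3 a further 1.38 kb beyond STAT5A, were the least abundant members and the most uneven. Both serve prolactin, growth hormone and interleukin-2 family signals. STAT5B had 29, 22 and 31 reads in WT, 1, 4 and 11 in KO, 61 and 34 in Lipo, and 44 and 27 in OE. All 3 KO libraries were below every other library, and Lipo and OE overlapped. In CPM the level was 1.15 ± 0.274 in WT and 0.226 ± 0.224 in KO (SD, n = 3 each), 5.01-fold lower in KO (log2 difference -2.33 ± 0.61 SE, adjusted p = 0.0194). The call was lost without WT 3 (adjusted p = 0.0646) or KO 2 (adjusted p = 0.0719), and the estimate was -3.41 without KO 3. Between OE and Lipo the log2 difference was -0.27 ± 0.61 (SE, adjusted p = 0.827).

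STAT5A had 5, 4 and 2 reads in WT, 0 in each KO library, 0 in each Lipo library, and 25 and 21 in OE. It passed the filter on low counts only through OE, so its presence among the tested genes is not evidence of a change. Set against a floor of 3 counts over the Lipo group it was 16.8-fold higher in OE (adjusted p = 0.00764). Without Lipo 2, Lipo 3 or OE 1 this call was lost (adjusted p = 0.0814, 0.0820 and 0.0637). The WT level was 3.63-fold above the same kind of floor in KO, and this difference did not pass (adjusted p = 0.0558). Both folds leave out the counting error of the group with reads. That error alone allows a pooled level of 0.0762 to 0.273 CPM in WT and 0.801 to 1.46 CPM in OE. The 0 reads of KO and Lipo allow up to 0.0420 and 0.0653 CPM at 3 counts over the group, counting error only. The summed haematopoietic markers given above were also highest in OE, and their part in the STAT4 and STAT5A levels was not tested.

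**Figure D3:**
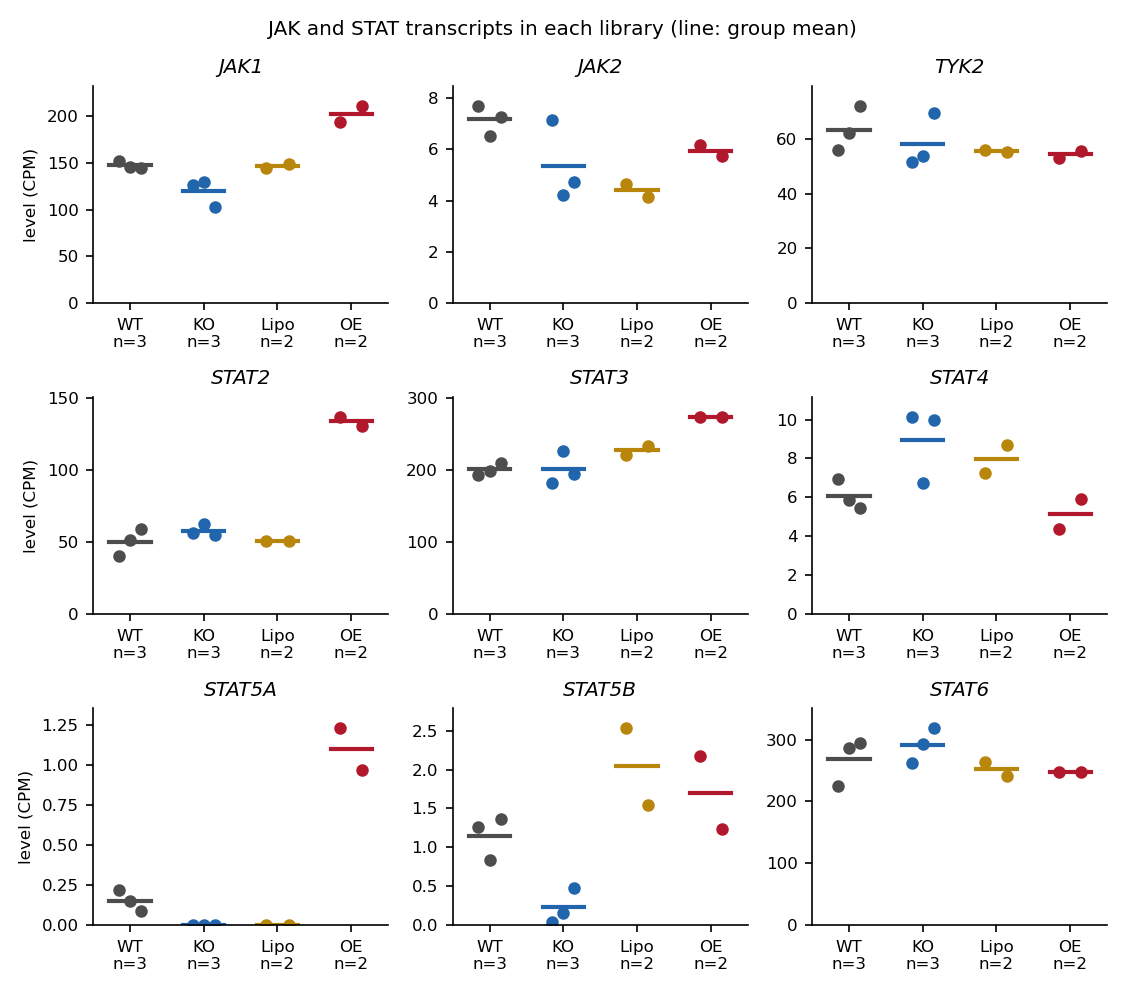
Level of each JAK and STAT transcript in CPM, with 1 point per library and a line at the group mean (WT and KO n = 3, Lipo and OE n = 2). STAT2 (137 and 131 CPM), JAK1, STAT3 and STAT5A have both OE points above all others, and STAT5B has its 3 lowest points in KO. JAK2, TYK2, STAT3 and STAT6 were called in no comparison of the fit over all 10 libraries.

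Counted over the family, KO against WT called 1 of 9 members, STAT5B, as lower, where 12.6% of the 15832 tested genes were called, 5.13% as higher and 7.45% as lower. OE against Lipo called 3 of 9 as higher and 0 as lower, where 12.3% of tested genes were called, 6.79% as higher and 5.53% as lower. Without STAT5A the count was 2 of 8. Leaving out Lipo 2, Lipo 3 or OE 1 left 1 called member in OE against Lipo, and leaving out WT 3 left 0 in KO against WT. Lipo against WT called 0 of 9 by edgeR and 0 by DESeq2, with 2 members, JAK2 and STAT5A, at an unadjusted p under 0.05. In that comparison 3.7% of tested genes were called, 1.32% as higher and 2.38% as lower. KO against WT and Lipo against WT share the WT libraries, and OE against Lipo shares the Lipo libraries with the latter.

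Whether KO and OE acted on a member differently was tested directly, as the KO to WT log2 difference minus the OE to Lipo log2 difference, 2 effects that share no library. It was called for 4 of 9 members, against 16.6% of tested genes, and for 3 of 8 without STAT5A, which passed the filter on low counts only through OE. For STAT2 the KO effect was lower by a log2 difference of -1.19 ± 0.22 (SE, adjusted p = 0.00173), and for JAK1 by -0.77 ± 0.18 (adjusted p = 0.00996). STAT5A was called lower as well (adjusted p = 0.00214). STAT4 was the member with a higher KO effect, by 1.18 ± 0.35 (SE, adjusted p = 0.0317). The STAT4 call was lost without any 1 of WT 2, WT 3, KO 1, Lipo 2, Lipo 3 or OE 1 (adjusted p = 0.0513 to 0.159), and the JAK1 call without Lipo 2, Lipo 3 or OE 2 (adjusted p = 0.0541 to 0.0770). For STAT5B the estimate was -2.06 ± 0.87 (SE, adjusted p = 0.116), which did not pass.

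**Figure D4:**
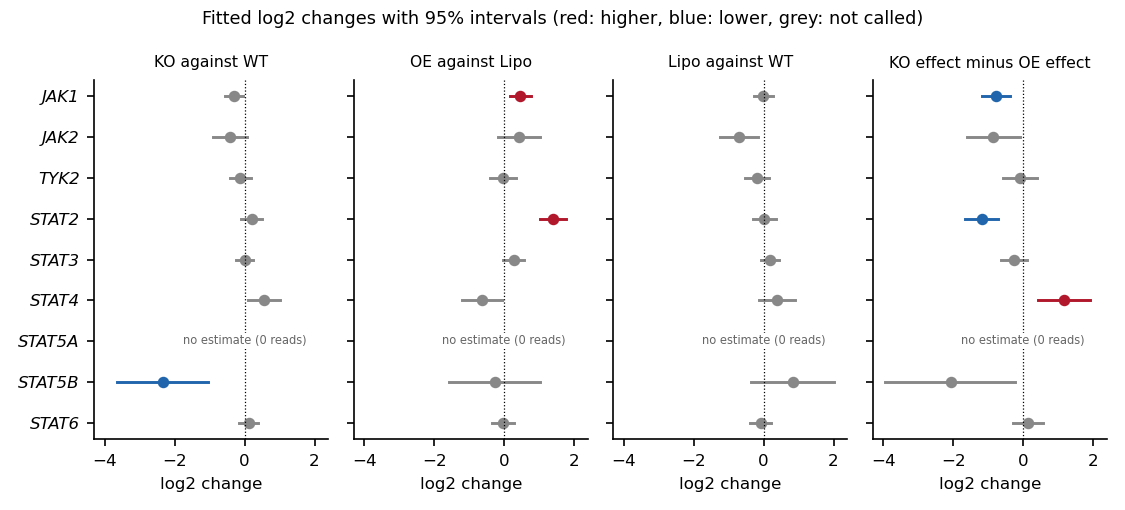
Fitted log2 difference of each member with its 95% interval in the 3 group comparisons and in the KO effect minus the OE effect. Red marks called higher, blue called lower and grey not called. STAT2 lies at 1.39 in OE against Lipo and STAT5B at -2.33 in KO against WT, Lipo against WT holds no called member, and STAT5A has no interval because a group had 0 reads.

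The surrounding pathway was read from 151 ligands, receptors, partners, inhibitors and targets, of which 104 passed the filter on low counts. In KO 5 were called higher and 18 lower, and in OE 51 were called higher and 4 lower, beside the shares of all tested genes given above. Some of the 51 passed the filter only through OE and do not support the count. With the stricter filter on low counts 43 were higher and 3 lower in OE. The lists were chosen with earlier results of these data known. The median log2 difference of the 104 genes was -0.11 in KO and 0.66 in OE, against 0.0034 and -0.0071 over all tested genes, and neither median changed with genes at 0 in a group set to their lower bounds.

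Of 14 tested ligands, 10 were called higher in OE and 0 lower, 6 with the stricter filter on low counts. IFNL1, IFNL2, IFNL3 and CSF3 had 0 to 3 reads in each of the other groups and passed the filter only through OE, so their calls do not support the count. The lowest adjusted p was that of IFNL1, a type III interferon, which had 1 read in Lipo and 75.1 ± 4.38 CPM in OE (SD, n = 2). IFNL2, another type III interferon, had 0 reads in Lipo and was at least 173-fold higher in OE (adjusted p = 4.62e-06). IFNL2 and IFNL3 are near-identical copies, so their split is uncertain. IL23A rose by a log2 difference of 2.85 ± 0.21 (SE, adjusted p = 1.99e-07). In KO 1 of the 14 was higher and 1 lower, and 4 were called without WT 1. CLCF1, an interleukin-6 family cytokine that signals through STAT3, fell from 47.4 ± 6.28 to 16.4 ± 4.32 CPM (SD, n = 3, log2 difference -1.53, adjusted p = 4.21e-05), and IL7 rose from 1.14 ± 0.121 to 3.75 ± 1.67 CPM (adjusted p = 0.00494). IL7 shares 16.3% of its exon bases with a gene on the other strand. In OE CLCF1 was higher than in Lipo by a log2 difference of 1.50 (adjusted p = 0.000275), and the KO and OE effects on it differed (adjusted p = 2.87e-06).

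Receptors gave more calls in KO than any other of these lists, with 7 of 23 tested lower and 1 higher. IFNLR1, the specific chain of the type III interferon receptor to which JAK1 binds, had 755 reads over the WT libraries and 0 over KO, at least 249-fold lower (adjusted p = 9.03e-09). IL20RB, which with IL20RA or IL22RA1 forms receptors for interleukin-20 family cytokines, fell from 157 ± 5.19 CPM (SD, n = 3) to a mean of 23.6 CPM with KO libraries from 20.5 to 26.5 (log2 difference -2.73 ± 0.12 SE, adjusted p = 3.66e-09), and IL6R, the interleukin-6 receptor, from 34.3 ± 3.24 to 14.2 ± 2.95 CPM (adjusted p = 0.000101). IL7R was the receptor that rose, from 33.4 ± 6.21 to 75.0 ± 17.3 CPM (adjusted p = 0.000473). In OE 7 receptors were higher and 2 lower, and 10 were higher and 4 lower when only OE and Lipo were fitted. IL10RA, the ligand-binding chain of the interleukin-10 receptor, rose from 1.41 ± 0.187 to 8.72 ± 0.361 CPM (SD, n = 2, adjusted p = 0.000218), and IL15RA from 13.4 ± 0.549 to 32.1 ± 0.677 CPM (adjusted p = 0.000423). Without Lipo 2, Lipo 3, OE 1 or OE 2 the OE count fell to 5, 3, 4 and 5 receptors.

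When only OE and Lipo were fitted, 6 partners and cofactors were called, all higher, where 5664 of 14532 tested genes were called. In the fit over all 10 libraries this list gave few calls. Of 8 tested, 1 was higher in OE, NMI, an interferon-induced protein that binds STATs, from 32.1 ± 3.35 to 82.7 ± 1.07 CPM (SD, n = 2, adjusted p = 0.000420). In KO 2 were lower, CREBBP and KPNA1, and this count fell to 0 without WT 2, WT 3 or KO 3 and to 1 without any Lipo or OE library. Neither CREBBP nor KPNA1 was called when only KO and WT were fitted (adjusted p = 0.0757 and 0.109). IRF9 was listed at 0 in all 10 libraries. The annotation shares 48.4% of its exon bases with a readthrough gene that was also at 0, and the neighbour RNF31 had 1 read in all, so the entry is not a measured absence.

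When only OE and Lipo were fitted, 15 inhibitors were called, 11 higher and 4 lower. In the fit over all 10 libraries, most tested inhibitors were not called in each comparison. In OE 7 of 21 tested were higher and 1 lower, a count of calls that fell from 8 to 3, 3, 2 and 3 without Lipo 2, Lipo 3, OE 1 and OE 2. USP18, which binds the type I interferon receptor and displaces JAK1, rose from 13.0 ± 0.181 to 146 ± 15.8 CPM (SD, n = 2, adjusted p = 1.05e-08). PDLIM2, a ubiquitin ligase for STATs, rose from 14.5 ± 3.13 to 37.0 ± 2.79 CPM (adjusted p = 0.000639). In KO 4 were lower and 0 higher. This count fell to 2 without WT 2, and to 1 without KO 3 or when only KO and WT were fitted. CBL, a ubiquitin ligase for activated receptors, fell from 95.6 ± 15.8 to 52.6 ± 12.5 CPM (SD, n = 3, adjusted p = 0.00297).

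Interferon targets were all called higher in OE, 21 of 21 tested, and 19 were called with the stricter filter on low counts. The stricter filter asks for over 1 CPM in at least 3 libraries, more than OE has, so these 19 did not pass through OE alone. Targets not called with it do not support the count of 21. The median log2 difference was 5.18, which was the same with IFI27, at 0 in Lipo, set to its lower bound. OAS2, a double-stranded RNA sensor, rose from 2.15 ± 0.847 to 1562 ± 16.0 CPM (SD, n = 2, adjusted p = 9.20e-12). IFI44L rose from 4.66 ± 0.114 to 723 ± 6.99 CPM and IFIT1, which binds foreign RNA ends, from 4.41 ± 0.825 to 651 ± 2.59 CPM. Both have the interferon core in the windows printed above. In KO 3 targets were higher and 2 lower with a list median of 0.07. IFIT2 rose from 4.77 ± 0.598 to 11.8 ± 0.902 CPM (SD, n = 3, adjusted p = 1.12e-05) and IFIT3 from 3.16 ± 1.06 to 9.26 ± 0.595 CPM (adjusted p = 5.48e-05), while OAS1 fell from 26.2 ± 4.85 to 14.3 ± 2.41 CPM (adjusted p = 0.00162). The third higher target, IFIT1, lost its call when only KO and WT were fitted (adjusted p = 0.0531).

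Of 13 tested STAT3 and acute phase targets 4 were higher and 1 lower in OE, and 0 higher and 2 lower in KO. SERPINA1, which encodes alpha-1 antitrypsin, rose in OE from 36.9 ± 4.68 to 88.4 ± 2.42 CPM (SD, n = 2, adjusted p = 0.00153). When only KO and WT were fitted, 0 of these targets were called in KO. The KO count fell to 0 without WT 3 or KO 2 and to 1 without WT 2, KO 3 or any Lipo or OE library, and was 4 without KO 1. The OE count fell from 5 to 3 without WT 2, to 1 without Lipo 2 and to 2 without Lipo 3, OE 1 or OE 2, and was 11 when only OE and Lipo were fitted and 10 with WT as control. Of the 15 STAT6 and type 2 targets 4 were tested, 1 of which, TGM2, was called higher in OE and 0 in KO (1 without WT 1), where 1 had an unadjusted p under 0.05 and DESeq2 called 0. The TGM2 call was lost without any 1 of the Lipo or OE libraries.

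In Lipo against WT 8 of the 104 pathway genes were higher and 0 lower, among them IL23A and OASL, and none of these calls held without Lipo 2 or Lipo 3. Leaving out WT 2, WT 3 or KO 1 gave 4, 5 and 16 genes.

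**Figure D5:**
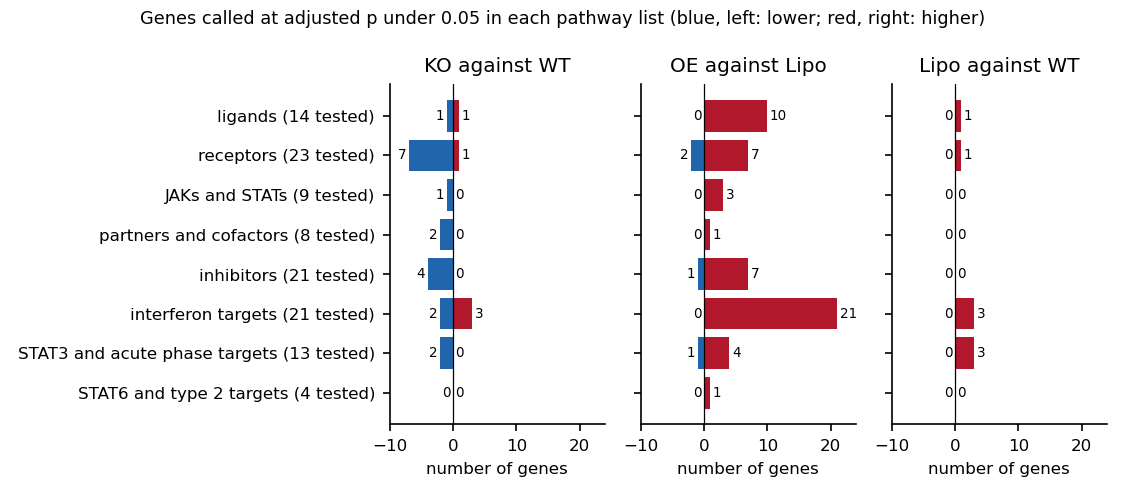
Number of genes called lower (blue, left) and higher (red, right) at adjusted p under 0.05 in each list, for 3 comparisons. Interferon targets (21 of 21) and ligands (10 of 14) fill the higher side in OE against Lipo, and receptors hold 7 of the lower calls in KO against WT. With the stricter filter on low counts, 19 interferon targets and 6 ligands were called in OE against Lipo.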

How the data were processed

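The authors deposited whole-number read counts per gene in 1 table. Per the labels' protocols, total RNA from H441 cells was isolated with an AllPrep kit and made into libraries with a stranded pico-input total RNA kit. Per the submitters' processing notes, the tools were FastQC, HISAT2 2.1.0, featureCounts and edgeR on GRCh38; their settings, including strand and multi-mapping reads, are not given in the sources used here. Column names were matched to sample titles, and 2 columns that matched no sample were not used. From the counts, edgeR 4.0.16 (R 4.3.3, limma 3.58.1) was run over all 10 libraries with 1 coefficient per group: filterByExpr on the 4 groups, TMM scaling, a robust quasi-likelihood fit and two-sided tests adjusted over 15832 genes by Benjamini and Hochberg, with calls at adjusted p under 0.05. Intervals are 95%. DESeq2 1.42.0, other scalings and filters, other controls, a replicate block and leaving out each library were alternatives. The scripts were tested on simulated data. Replicate pairs differed by more than counting noise, with chi-square per degree of freedom from 4.87 to 65.0. Members are named by symbol, and from each pathway list up to 4 genes per comparison with the smallest p among those called were eligible for naming. IFI27, RNF31 and the OE value of CLCF1 were chosen after their values were seen. The members and lists were chosen with earlier results of these data known. Exon lengths and positions are from GENCODE release 29.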

Additional observations from a re-analysis of the deposited data

How the results depend on the processing

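Called members in KO against WT numbered 1 in most settings, 2 with DESeq2 and with no filter on low counts, and 0 to 1 with single libraries left out. In OE against Lipo the count was 3, 5 when only OE and Lipo were fitted, 4 with WT as control, 2 with library size alone, no filter, a stricter filter or the replicate block, and 1 to 3 with single libraries left out. Lipo against WT gave 0 in every setting run, and the difference of effects gave 4, 3 with a stricter filter, and 2 to 5 when libraries were left out. Called pathway genes in KO numbered 23, 13 when only KO and WT were fitted, and 17 to 26 with libraries left out. In OE they numbered 55, with 38 to 57 when libraries were left out, and in Lipo against WT 8, with 15 by DESeq2, 17 with no filter and 0 to 16 with libraries left out. When only OE and Lipo were fitted, 5664 genes were called in place of 1950, and 79 pathway genes in place of 55. Called pathway genes in OE numbered 66 with WT as control and 46 with the stricter filter. Same-numbered WT and KO libraries correlated at 0.328, 0.0577 and 0.185, and the other WT and KO pairs at -0.238 to 0.0920. Each KO library was closest to the WT library of its number, while WT 2 was closest to KO 3. These values do not settle whether the numbers pair the libraries. With the replicate block, genes called in KO against WT went from 1992 to 2874. The JAK1 call in OE was then lost (adjusted p = 0.0648). Called pathway genes in Lipo against WT were 14 with the block, and the STAT6 and TYK2 differences in OE were 0.10 and 0.12. Other signs that turned belong to small log2 differences that were not called. STAT3 in KO was -0.0016 with no filter, -0.070 against all 5 libraries labelled wild type and -0.085 to 0.072 with libraries left out. With WT as control in OE, STAT5B was 0.57 and JAK2 -0.27. JAK1 in Lipo was 0.00091 with RLE scaling, 0.0015 by DESeq2, 0.011 without mitochondrial genes, 0.0098 with the block and -0.034 to 0.012 with libraries left out, and STAT2 in Lipo was -0.034 with library size alone and -0.026 with the block, and -0.12 to 0.15 with libraries left out. With libraries left out, STAT5B in OE was -0.72 to 0.12, STAT6 in OE -0.10 to 0.024 and TYK2 in the difference of effects -0.23 to 0.014. STAT5A in KO was called by DESeq2 (adjusted p = 0.0460) and with no filter (adjusted p = 0.0493), and was removed by a stricter filter. The cause of these changes was not tested. Low read numbers limit STAT5A and STAT5B, and 2 libraries per group limit OE and Lipo.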

Other observations

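Among all tested genes, those whose profile over the 10 libraries was most like each called member, by root mean square difference in centred log2 CPM, were ANKRD40 (0.0658), CCSER2 (0.0717) and CCND1 (0.0760) for JAK1. For STAT4 they were ATP5ME (0.135), NQO2 (0.145) and PIBF1 (0.148). The least abundant members had looser neighbours: TNFSF13B (0.341), TENT5A (0.361) and HAS2 (0.366) for STAT5A, and FIBCD1 (0.413), B3GNT8 (0.425) and CFAP92 (0.450) for STAT5B. The profiles share the same libraries and depth, and no test was run on this likeness.

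The other TET dioxygenases were measured beside the family. TET2 had 33.0 ± 2.66 CPM in WT and 32.2 ± 8.67 in KO (SD, n = 3 each), 27.7 ± 0.561 in Lipo and 34.7 ± 2.06 in OE (SD, n = 2 each). TET3 had 50.1 ± 5.65 CPM in WT, 45.6 ± 7.27 in KO, 34.9 ± 4.38 in Lipo and 39.4 ± 6.14 in OE. Neither was called in a comparison by edgeR, and the lowest adjusted p was 0.119, for TET3 in Lipo against WT.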
